A study of Mus musculus with 6 samples.

Results

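Neurotrophins are secreted growth factors, made as proforms that are cut to the mature ligands, and they act on Trk receptor tyrosine kinases and on the receptor p75. Brain-derived neurotrophic factor (gene Bdnf) binds TrkB (Ntrk2), neurotrophin-3 (Ntf3) binds TrkC (Ntrk3), and p75 (Ngfr) binds every neurotrophin and their proforms. In the striatum, BDNF protein is known to arrive mainly in axons from the cortex and midbrain, while the striatal projection neurons carry TrkB. The genes Bdnf, Ntf3, Ntrk2, Ntrk3 and Ngfr were chosen by symbol and not by their values, and all 5 were found among the 47062 identifiers of the deposited table. Of these, 2 passed the filter for the test across genes, a mean of at least 0.5 FPKM (fragments scaled to transcript length and to library size).

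Total RNA came from the striatum, with its subventricular zone, of mice at postnatal day 0 on a mixed background of C57BL/6J, 129S6 and CD1. The 3 mutant libraries were Drd2-Cre;Sp9Flox/Flox, in which the Drd2 driver, from the gene of the dopamine D2 receptor, directs Cre recombinase to indirect pathway (striatopallidal) neurons and their precursors. The 3 control libraries were littermates with Sp9Flox/Flox and no Cre, so both groups carried the floxed Sp9 alleles, and effects of the transgene and of the deletion cannot be told apart. The labels do not say whether a library is 1 animal, and any p-value here refers to library-to-library spread, which may be technical. Libraries held 16237067 to 19457784 fragments, estimated from the smallest step of the deposited counts. Sp9, a zinc finger transcription factor, averaged 8.65 ± 0.906 FPKM in mutants and 18.8 ± 1.38 FPKM in controls (SD, n = 3 each). The 6 genes chosen as markers of striatum summed to 1248 to 1337 FPKM in mutants and 1371 to 1452 FPKM in controls, and none of them was under 0.5 FPKM in every library. The 7 markers of cortical glutamatergic neurons varied widely between libraries. They summed to 35.4, 8.72 and 58.6 FPKM in mutant replicates 1 to 3, against 22.1, 24.0 and 8.16 FPKM in control replicates 1 to 3. The part of cortical cells in the values below was not tested. Xist and 4 Y-linked genes put control replicate 3 apart as the only male library.

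The Trk genes encode more than 1 protein each, and this decides what their values measure. Ntrk2 (ENSMUSG00000055254; GRCm38, chr13:58806569-59133970, plus strand) has 10 transcripts in GENCODE release M21, with proteins of up to 821 codons with the kinase and a truncated form of 476 codons without it, known as TrkB.T1. Ntrk3 (ENSMUSG00000059146; chr7:78175959-78738012, minus strand) has 20 transcripts, including a receptor of 825 codons with the kinase and a truncated one of 612 codons. The coding sequences of the 2 forms of each gene are shown where they part, because a value per gene adds both. The lower-case bases are the last 30 that are shared and the capitals are the first 37 that differ. For Ntrk2 the forms share 1394 coding bases, and the capitals of the truncated form run to its stop codon in exon 12 (chr13:58932024-58932060), while those of the full-length form lie in exon 13 of its transcript (chr13:58985803-58985839).
Ntrk2 full length: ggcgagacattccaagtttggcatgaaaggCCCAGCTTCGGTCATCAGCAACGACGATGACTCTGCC
Ntrk2 truncated: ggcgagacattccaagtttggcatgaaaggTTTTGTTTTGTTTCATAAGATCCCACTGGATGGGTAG
For Ntrk3 the forms share 1585 coding bases; the capitals lie at chr7:78260378-78260414 in the full-length transcript and at chr7:78304390-78304426 in the truncated one.
Ntrk3 full length: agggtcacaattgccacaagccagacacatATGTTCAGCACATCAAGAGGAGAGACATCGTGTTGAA
Ntrk3 truncated: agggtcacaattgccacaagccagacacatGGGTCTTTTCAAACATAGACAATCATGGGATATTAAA
The deposited table gives 1 row per gene, so these forms were not measured separately.

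The members divided into abundant receptors, a scarce receptor and ligands at the limit of detection. Averaged over the 6 libraries, Ntrk2 stood at 60.8 FPKM, Ntrk3 at 39.2, Ngfr at 0.369, Ntf3 at 0.0285 and Bdnf at 0.0210. By mean FPKM, Ntrk2 ranked 1896th and Ntrk3 2957th from the top of the table. Ntrk2 lay above Ntrk3, and Ntrk3 above Ngfr, in every library with no overlap of their ranges. Bdnf and Ntf3 overlapped, and their order is not resolved.

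**Figure D1:**
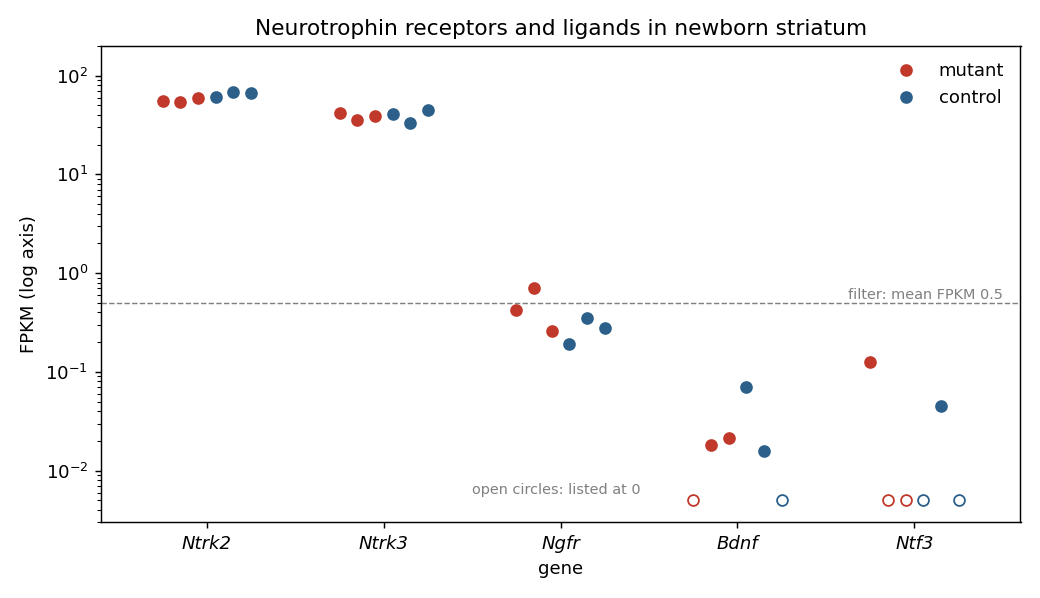
FPKM on a log axis for the 5 members, one point per library (n = 3 mutant and 3 control); open circles are libraries listed at 0, and the dashed line is the filter at 0.5 FPKM. Ntrk2 and Ntrk3 lie between 32.8 and 67.6 FPKM in each library, Ngfr between 0.193 and 0.703, and Bdnf and Ntf3 at or under 0.126.

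Transcripts of the ligands were barely present in the dissected tissue. Bdnf (ENSMUSG00000048482; chr2:109674700-109727007, plus strand) was listed at 0, 0.0181 and 0.0213 FPKM in mutant replicates 1 to 3, and at 0.0704, 0.0160 and 0 FPKM in control replicates 1 to 3. These values correspond to 0, 1 and 1 fragments in mutants, against 4, 1 and 0 in controls. Bdnf was therefore at most 4 fragments deep in any library, and the groups overlapped (exact two-sided permutation p = 0.9, n = 3 each).

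Ntf3 (ENSMUSG00000049107; chr6:126101412-126166910, minus strand) had 0.126 FPKM in mutant replicate 1, or 3 fragments, and was listed at 0 in the other mutant libraries. Among controls it had 0.0446 FPKM in replicate 2, or 1 fragment, and was listed at 0 in the others (exact two-sided permutation p = 1.0, n = 3 each). A library listed at 0 allows up to 3 fragments, which is 0.0479 to 0.0640 FPKM for Bdnf and 0.126 to 0.134 FPKM for Ntf3, counting error only. A difference in either ligand was not detectable at this depth, and no fold is given. Ntf5, the gene of neurotrophin-4, was as low and held 1 fragment in mutants together and 1 in controls together. Bdnf, Ntf3 and Ntf5 combined held 6 fragments in the mutant libraries together and 7 in the control libraries together.

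Genes that act on proneurotrophins were expressed in the same libraries, and each of the 15 chosen passed the filter. With limma none passed an adjusted p of 0.05, beside 0.06% of all 16666 genes tested (0.036% higher and 0.024% lower in mutants). At an unadjusted p under 0.05, 3 of the 15 had higher and 1 had lower values in mutants, where 2.65% of all genes were higher and 2.99% lower. Groups did not overlap for 4 that were higher and 1 that was lower (Sorcs2), beside 5.32% and 6.04% of all genes. Sorcs3 and Sorl1 encode sorting receptors related to sortilin. Sorcs3 averaged 8.53 ± 1.13 FPKM in mutants and 5.21 ± 1.19 FPKM in controls (SD, n = 3 each; log2 fold change 0.68 ± 0.18 (SE), adjusted p = 0.763, limma). Sorl1 averaged 12.8 ± 1.82 FPKM in mutants and 8.63 ± 1.33 FPKM in controls (SD, n = 3 each), with the same adjusted p (limma). For both genes each mutant library lay above each control. Hap1, which encodes huntingtin-associated protein, a partner in the transport of proBDNF, averaged 11.99 ± 1.35 FPKM in mutants and 9.45 ± 1.09 FPKM in controls. The proprotein convertase gene Pcsk2 averaged 42.5 ± 3.89 FPKM in mutants and 53.5 ± 7.12 FPKM in controls, with groups that overlapped. Sort1 itself, the gene of sortilin, averaged 26.3 ± 0.971 FPKM in mutants and 25.1 ± 0.582 FPKM in controls.

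Ntrk2, the TrkB gene, was slightly lower in mutants in each pairing of libraries, but the difference did not pass the test across genes. It had 56.0, 54.0 and 59.8 FPKM in mutant replicates 1 to 3, against 61.1, 67.6 and 66.3 FPKM in control replicates 1 to 3. The highest mutant library lay just under the lowest control library, so the groups did not overlap. The means were 56.6 ± 2.92 FPKM in mutants and 65.0 ± 3.42 FPKM in controls (SD, n = 3 each), a difference of -12.9%. The log2 fold change was -0.20 ± 0.06 (SE; 95% interval -0.34 to -0.05), with an unadjusted p = 0.0162 and an adjusted p = 0.786 (limma). By exact permutation (two-sided) the p was 0.1, below which 3 against 3 libraries cannot go. Over all genes tested, 6.04% were lower in mutants with groups that did not overlap, 2.99% had an unadjusted p under 0.05 and lay lower, and 0.06% passed the adjusted p, so Ntrk2 is 1 of many genes with such values. Neither Ntrk2 nor Ntrk3 met the rule of the study's design text, a fold of 2 with an unadjusted p under 0.05. Of all genes tested 0.342% met it (0.174% higher and 0.168% lower). Bdnf, Ntf3 and Ngfr lay under the filter, so the rule could not be applied to them in this fit.

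Leaving out mutant replicate 2 or control replicate 3 moved the unadjusted p of Ntrk2 to 0.0514 and 0.0535 (limma), and the log2 fold change ran from -0.24 to -0.16 with any 1 library left out. On the deposited count columns, which hold fragments times 1 factor per library and are called scaled counts here, Ntrk2 had 8444, 8160 and 8950 in mutant replicates 1 to 3, against 9185, 10196 and 10005 in control replicates 1 to 3. The groups again did not overlap, with a log2 fold change of -0.20 and an adjusted p = 0.422 (limma). In bulk tissue fewer cells of a type and less RNA per cell cannot be told apart. The 7 genes chosen as markers of indirect pathway neurons summed to 82.4 to 110 FPKM in mutants and 215 to 240 FPKM in controls, but Drd2 among them averaged 44.4 ± 1.97 FPKM in mutants and 45.0 ± 3.25 FPKM in controls (SD, n = 3 each). The 7 markers of direct pathway neurons summed to 530 to 572 FPKM in mutants and 493 to 523 FPKM in controls. Of their log2 fold changes, 4 lay above 0 and 3 below. The 9 markers of astrocytes and radial glia, cells that also carry Ntrk2, summed to 599.5 to 734.5 FPKM in mutants and 550.0 to 687.7 FPKM in controls. Most of that sum was Fabp7, with 547 ± 58.5 FPKM in mutants and 476 ± 61.5 FPKM in controls, while Sox9 averaged 6.85 ± 1.37 FPKM in mutants and 15.1 ± 1.46 FPKM in controls (SD, n = 3 each; unadjusted p = 0.000391, adjusted p = 0.238, limma), without overlap. The part of these lists in the Ntrk2 value was not tested.

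Ntrk3, the TrkC gene, had 42.2, 35.5 and 38.9 FPKM in mutant replicates 1 to 3, against 41.2, 32.8 and 44.8 FPKM in control replicates 1 to 3. The groups overlapped fully, and control replicate 2 was the lowest of the libraries. The means were 38.9 ± 3.33 FPKM in mutants and 39.6 ± 6.12 FPKM in controls (SD, n = 3 each; log2 fold change -0.02, 95% interval -0.34 to 0.30, adjusted p = 0.995, limma). A difference of either sign within that interval was not resolved. Its direction turned on scaled counts (log2 fold change 0.08) and without mutant replicate 2 (0.04), control replicate 1 (0.02) or control replicate 3 (0.08), and without control replicate 2 the log2 fold change was -0.15.

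Ntrk3 varied more between replicates than most genes at its level. The pooled within-group SD of its log2 values was 0.183, against a median of 0.0807 for 1331 genes with a mean FPKM within a factor of 1.25, and it exceeded 89.6% of them. For Ntrk2 the same SD was 0.0749, beside a median of 0.0751 for 891 genes at its level.

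**Figure D2:**
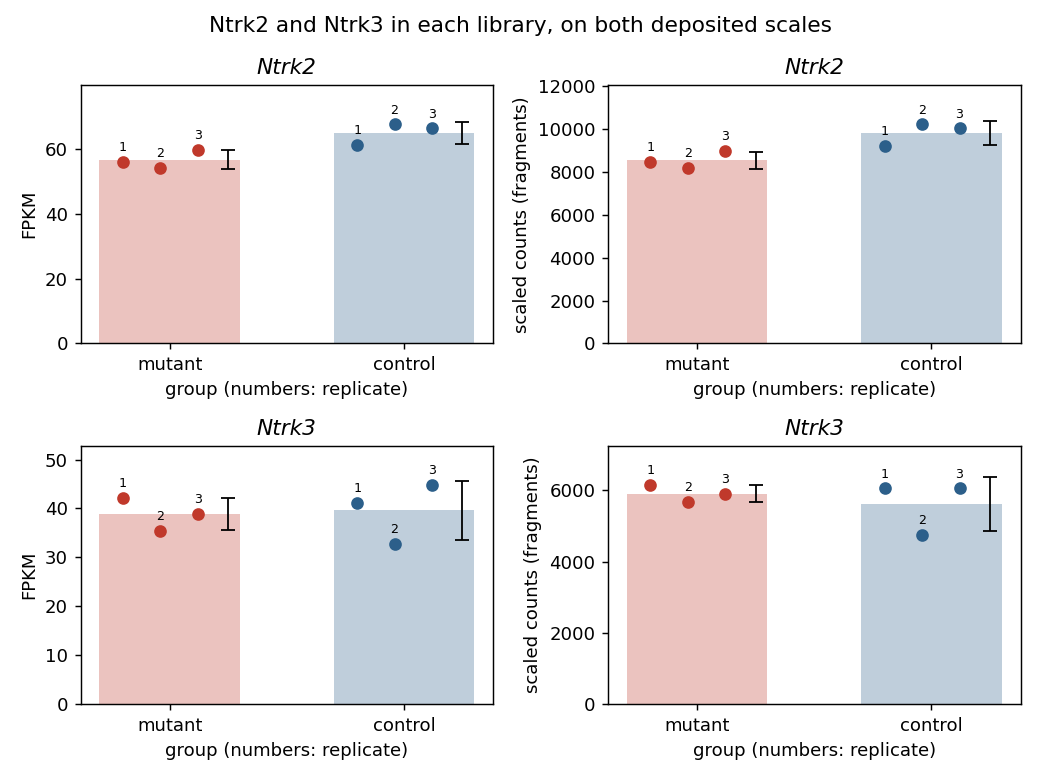
Ntrk2 (top) and Ntrk3 (bottom) in FPKM (left) and scaled counts (right); points are libraries with their replicate number, bars are means and error bars are SD (n = 3 each). The 3 mutant libraries of Ntrk2 lie under the 3 controls on both scales, while those of Ntrk3 overlap with the controls.

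The FPKM and the scaled counts can be set against each other. The scaled count of a gene divided by its FPKM follows the mean effective length of the transcripts assigned to it, as far as both columns come from the same assignment. For Ntrk2 this ratio was nearly the same in all libraries, at 150.5 ± 0.695 in mutants and 150.7 ± 0.346 in controls (SD, n = 3 each). For Ntrk3 it was 145.7, 159.7 and 151.7 in mutant replicates 1 to 3, against 147.1, 144.7 and 135.2 in control replicates 1 to 3. The groups overlapped, and the lowest and the highest library differed far more than for Ntrk2. For Ntrk3 the FPKM and the scaled counts thus differ in direction between the groups, and transcript forms were not measured. Ngfr, with 1 annotated transcript, had ratios of 70.0 to 70.9. Some annotated genes overlap the Trk genes. Of the 4 that overlap Ntrk3, Gm9885 had 1.40 to 2.03 FPKM, and since the use of strand is not given in the sources used here, its fragments cannot be told apart from those of Ntrk3. None of the 4 genes that overlap Ntrk2 was found by symbol in the deposited table, so no values can be given for them.

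The balance of TrkB to TrkC overlapped between the groups in FPKM but not on scaled counts. The ratio of Ntrk2 to Ntrk3 in FPKM was 1.33, 1.52 and 1.54 in mutant replicates 1 to 3, against 1.49, 2.06 and 1.48 in control replicates 1 to 3. Control replicate 2, high for Ntrk2 and low for Ntrk3, stood apart and the other 5 libraries lay between 1.33 and 1.54. On scaled counts the ratio was 1.37, 1.44 and 1.516 in mutant replicates 1 to 3, against 1.518, 2.15 and 1.65 in control replicates 1 to 3, so that the highest mutant lay just under the lowest control. The summed level of Ntrk2 and Ntrk3 was 89.5 to 98.7 FPKM in mutants and 100.4 to 111 FPKM in controls, and Ntrk2 made up the larger part of it in each library.

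**Figure D3:**
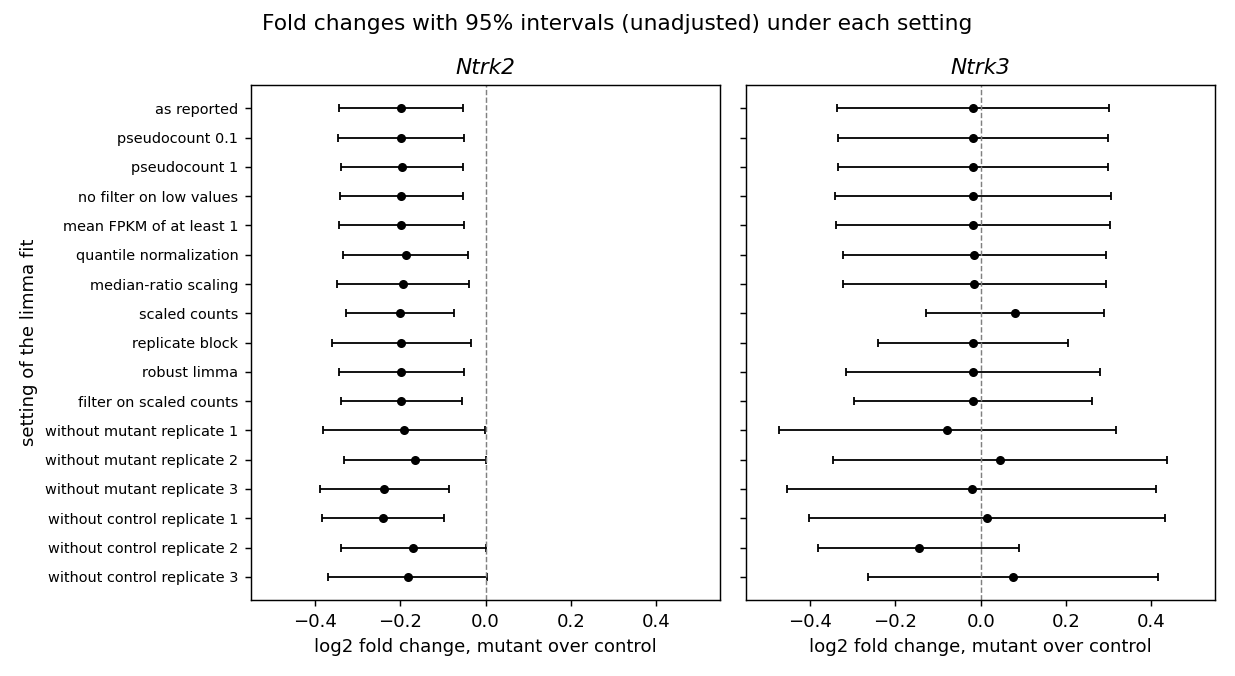
Log2 fold changes of Ntrk2 and Ntrk3, mutant over control, with 95% intervals that are not adjusted for the number of genes, for the fit as reported and under each alternative setting. The Ntrk2 estimates lie between -0.24 and -0.16, and those of Ntrk3 lie on both sides of 0, between -0.15 and 0.08.

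Ngfr (ENSMUSG00000000120; chr11:95568818-95587735, minus strand) encodes p75, a receptor of the tumour necrosis factor receptor family, and was scarce. It had 0.427, 0.703 and 0.262 FPKM in mutant replicates 1 to 3, against 0.193, 0.352 and 0.277 FPKM in control replicates 1 to 3. Behind these values lie 31, 51 and 16 fragments in mutants and 13, 24 and 17 in controls. Mutant replicates 1 and 2 lay above the control libraries and mutant replicate 3 lay within their range. The means were 0.464 ± 0.222 FPKM in mutants and 0.274 ± 0.0793 FPKM in controls (SD, n = 3 each; exact two-sided permutation p = 0.3). Its mean was under the filter, so it has no adjusted p in the fit as reported. On log2(FPKM + 0.5) the difference was 0.30, and it was 0.12 without mutant replicate 2. On scaled counts it was 0.66, with an adjusted p = 0.863 (limma). The ratio of the group means was 1.69 in FPKM and 1.70 on scaled counts, and the pseudocount of 0.5 makes the log2 value in FPKM smaller.

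Forebrain cholinergic neurons are known to carry p75, and their markers were measured beside Ngfr. The 5 chosen markers summed to 19.4, 25.4 and 18.2 FPKM in mutant replicates 1 to 3, against 11.1, 16.7 and 16.6 FPKM in control replicates 1 to 3, so the groups did not overlap. None of the 5 passed the adjusted p with limma, and 1 of them, the transcription factor gene Lhx8, was higher at an unadjusted p under 0.05, where 2.65% of all genes were. Groups did not overlap for Lhx8 and Slc18a3, beside 5.32% of all genes that were higher without overlap. Slc18a3, the vesicular acetylcholine transporter gene, had 3.50, 5.16 and 3.48 FPKM in mutant replicates 1 to 3, against 2.16, 3.22 and 3.27 FPKM in control replicates 1 to 3. Divided by the summed markers, Ngfr was 0.0214 ± 0.00666 in mutants and 0.0184 ± 0.00238 in controls (SD, n = 3 each). Relative to this list the group means of Ngfr thus stood in a ratio of 1.16, against 1.69 in FPKM. Most of the marker sum was Lhx8, with 12.06 ± 1.69 FPKM in mutants and 8.39 ± 1.83 FPKM in controls (SD). The ratio of 1.16 therefore rests mainly on Lhx8, a gene that was itself higher in mutants. It was also taken after the values were seen, and does not show what part cholinergic neurons have in the Ngfr difference. Markers of Schwann cells, another p75-bearing type, were low, with 4 of 4 under 0.5 FPKM in each library and Foxd3 at 0 throughout. They summed to 0.245 to 0.394 FPKM in mutants and 0.234 to 0.285 FPKM in controls. Ngfr itself was as scarce, at 0.193 to 0.703 FPKM over the libraries. The 5 septum markers, of which Dbx1 was at 0, summed to 11.5, 15.7 and 10.3 FPKM in mutant replicates 1 to 3. In control replicates 1 to 3 they summed to 8.81, 12.2 and 10.7 FPKM. Mutant replicate 2 was thus the highest and control replicate 1 the lowest library for this list too. The 7 markers of interneurons from the medial ganglionic eminence summed to 411 to 492 FPKM in mutants and 321 to 430 FPKM in controls. Their sum was also lowest in control replicate 1, and it was highest in mutant replicate 1. The 7 markers of meningeal fibroblasts summed to 4.53 to 5.82 FPKM in mutants and 3.31 to 4.20 FPKM in controls, also without overlap. Those of mural and endothelial cells summed to 57.8 to 65.1 FPKM in mutants and 60.8 to 67.9 FPKM in controls, with overlap. The part of these lists in the Ngfr values was not tested.

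**Figure D4:**
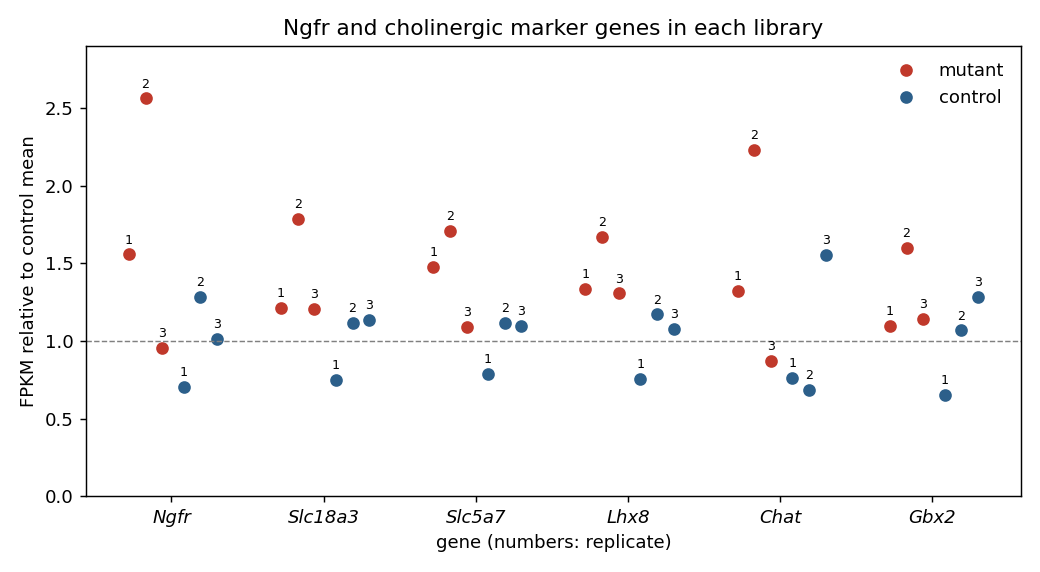
Ngfr and 5 cholinergic marker genes in each library, as FPKM divided by the mean of the 3 controls (dashed line at 1); numbers are replicates. Mutant replicate 2 is the highest library for each of the 6 genes, and control replicate 1 is the lowest for each except Chat.

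Promoter sequence was at hand for 4 of the 5 members, in 11 windows of 300 bases (RefSeq, GRCm38.p6). Proteins of the Sp family are known to bind GC boxes, and the windows were searched for GGGCGG on both strands, matches that overlap included. A match was found in 6 of the 11 windows, beside 35.6% of all 32817 windows in the table. Of the 7 Bdnf windows 2 held a match, as did both Ntf3 windows. The window of Ntrk2, the member whose groups did not overlap, held 1 match and that of Ngfr held 4, a number reached by 5.48% of all windows. The bases G and C made up 61.3% of the Ntrk2 window and 71.7% of the Ngfr window. The median over all windows was 52.7%, and the match counts were not corrected for this. The windows of Ntrk2 and Ngfr are shown with the matches in capitals. A match is a string of letters and was not measured as a binding site here.
Ntrk2, chr13:58806319-58806618, plus strand: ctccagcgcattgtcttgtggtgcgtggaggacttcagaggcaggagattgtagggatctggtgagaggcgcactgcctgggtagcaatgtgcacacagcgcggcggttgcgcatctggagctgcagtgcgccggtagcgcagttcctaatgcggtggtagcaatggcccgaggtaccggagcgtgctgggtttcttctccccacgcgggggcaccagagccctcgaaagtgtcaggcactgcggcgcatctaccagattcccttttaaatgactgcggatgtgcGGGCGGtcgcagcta
Ngfr, chr11:95587649-95587948, minus strand: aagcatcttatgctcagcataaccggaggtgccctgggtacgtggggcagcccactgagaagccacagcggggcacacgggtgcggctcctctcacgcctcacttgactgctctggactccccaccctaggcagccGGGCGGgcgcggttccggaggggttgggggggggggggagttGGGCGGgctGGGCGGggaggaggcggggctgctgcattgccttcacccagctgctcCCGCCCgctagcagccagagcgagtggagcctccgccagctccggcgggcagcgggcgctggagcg

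Beyond the receptors, 77 genes in 6 lists cover other steps of the neurotrophin pathway, and all 77 passed the filter. None passed the adjusted p with limma. At an unadjusted p under 0.05, 4 were higher and 6 lower in mutants, or 13.0% of the 77, beside 5.65% of all genes tested. Groups did not overlap for 14 of the 77, or 18.2%, beside 11.4% of all genes. The count of 10 genes at an unadjusted p under 0.05 was 6, 5, 6 and 6 without mutant replicate 1, mutant replicate 2, control replicate 1 and control replicate 3. The share of all genes under that p was not counted in these fits, so the lower counts have no background beside them. Of the 10, Sorcs3, Sorl1 and Egr1 stayed under that p whichever library was left out. The median log2 fold change over the 77 was -0.01, against 0.00 over all genes.

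Among 26 adaptors and kinases that pass on the Trk signal, 1 was higher and 1 lower at that unadjusted p, with a list median of 0.00. Pik3r1, a regulatory subunit of phosphoinositide 3-kinase, averaged 31.2 ± 3.83 FPKM in mutants and 23.1 ± 2.73 FPKM in controls (log2 fold change 0.43 ± 0.12 (SE), adjusted p = 0.781, limma). Kidins220, a scaffold that binds Trk receptors, averaged 108.9 ± 1.45 FPKM in mutants and 115.6 ± 0.610 FPKM in controls (SD, n = 3 each), a small difference with groups that did not overlap. Rapgef1, an exchange factor for Rap1, averaged 46.3 ± 1.25 FPKM in mutants and 48.8 ± 0.718 FPKM in controls.

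None of the 9 partners of p75 had an unadjusted p under 0.05. Lingo1, a coreceptor of p75, averaged 37.04 ± 1.80 FPKM in mutants and 34.4 ± 2.55 FPKM in controls, and Nradd, a p75-like receptor gene, 34.6 ± 1.03 FPKM in mutants and 31.5 ± 3.66 FPKM in controls (SD, n = 3 each). Maged1, whose product binds p75, averaged 223.8 ± 3.58 FPKM in mutants and 231.2 ± 7.25 FPKM in controls. All 9 partners had a higher FPKM than Ngfr in both groups. Of 6 genes for membrane proteins that bind or modulate Trk receptors, 1 was lower at an unadjusted p under 0.05. This was Islr2, also called Linx, with 357 ± 16.8 FPKM in mutants and 396 ± 5.17 FPKM in controls (SD, n = 3 each; log2 fold change -0.15, adjusted p = 0.806, limma). Slitrk5, a coreceptor of TrkB, averaged 19.5 ± 2.402 FPKM in mutants and 16.2 ± 1.34 FPKM in controls, and Ptprs, a receptor phosphatase gene, 109 ± 5.05 FPKM in mutants and 114 ± 6.65 FPKM in controls.

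The list called BDNF-induced genes holds 13 genes that BDNF or other signals induce in neurons. A response of each, Npas4 included, to BDNF was not checked here. Of the 13, none passed the adjusted p with limma and 3 had an unadjusted p under 0.05, all lower in mutants, beside 2.99% of all genes. Estimates were below 0 for 11 of the 13, beside 50.1% of all genes, with a list median of -0.22, and some of the 11 were close to 0, such as Homer1 at -0.01. The 13 genes summed to 140 to 149 FPKM in mutants, and to 186, 141 and 164 FPKM in control replicates 1 to 3, so the groups overlapped. Egr1, a zinc finger transcription factor gene, had 15.7, 15.99 and 16.7 FPKM in mutant replicates 1 to 3, against 30.2, 21.8 and 24.3 FPKM in control replicates 1 to 3. All mutant libraries lay under the controls (log2 fold change -0.63 ± 0.12 (SE), adjusted p = 0.566, limma). Fos averaged 2.32 ± 0.478 FPKM in mutants and 4.30 ± 1.80 FPKM in controls, and the nuclear receptor gene Nr4a1 averaged 9.33 ± 0.812 FPKM in mutants and 13.6 ± 3.35 FPKM in controls (SD, n = 3 each). Control replicate 1 was the highest library for all 3 genes and for most others of the list. Without it the log2 fold change of Fos was -0.43 in place of -0.72 (unadjusted p = 0.069, limma) and that of Nr4a1 was -0.34 in place of -0.49 (unadjusted p = 0.115, limma). The unadjusted p of Fos stayed under 0.05 when control replicate 3 was left out, that of Nr4a1 when control replicate 2 was left out, and neither did so for any other single library.

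None of 8 genes for regulators of Bdnf transcription passed either p in the fit as reported. With the replicate number as a block, Mef2c had an unadjusted p = 0.000707 (adjusted p = 0.552, limma). Mef2c, a MADS box factor, averaged 42.9 ± 10.8 FPKM in mutants and 55.7 ± 13.9 FPKM in controls, Arnt2, a bHLH-PAS factor, 80.9 ± 3.36 FPKM in mutants and 85.1 ± 2.85 FPKM in controls, and Crtc1, a coactivator of CREB, 38.9 ± 0.587 FPKM in mutants and 41.1 ± 0.672 FPKM in controls (SD, n = 3 each). The genes for these factors were thus expressed in libraries in which Bdnf held at most 4 fragments.

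**Figure D5:**
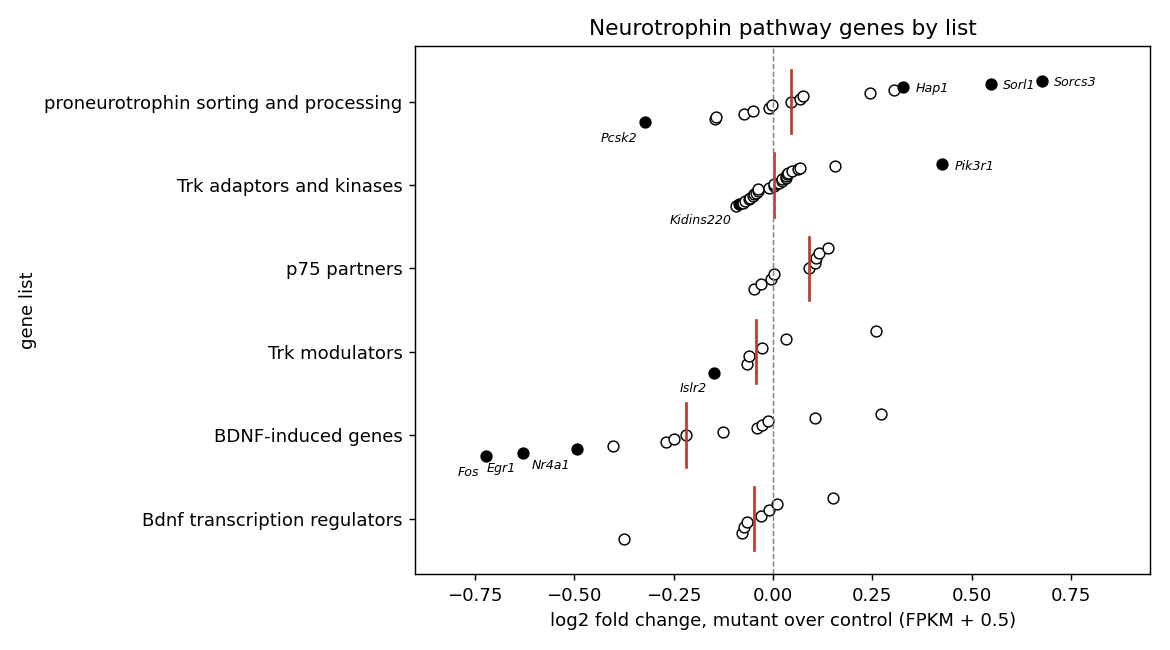
Log2 fold changes, mutant over control, of the 77 pathway genes, by list. Filled points have an unadjusted p under 0.05 and red bars are list medians. No gene passed an adjusted p of 0.05, and the lowest median, -0.22, is that of the list called BDNF-induced genes.

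Gfra1, which encodes a coreceptor of GDNF, a trophic factor outside this family, averaged 16.2 ± 3.001 FPKM in mutants and 4.47 ± 1.96 FPKM in controls (SD, n = 3 each; adjusted p = 0.376, limma), and on scaled counts its log2 fold change of 1.94 passed (adjusted p = 0.0349, limma). For Ntrk2 and Ntrk3 the ratios of the group means were 0.871 and 0.981, and the difference from Gfra1 was not tested.

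Over the 6 libraries, the profile of Ntrk2 was most like that of the translation factor gene Eif4b (Pearson r = 0.991) and Spin1 (r = 0.990), and that of Ntrk3 was most like Usp21 (r = 0.992) and Rfx3 (r = 0.984), among genes with a mean of at least 5 FPKM. The best match of a gene had a median r of 0.991 over 9224 such genes. These values are thus no closer than is usual for the best of many genes over 6 libraries.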

How the data were processed

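RNA sequencing libraries of newborn mouse striatum were compared, 3 mutant and 3 control. The authors deposited FPKM values and count columns per Ensembl gene, per the file headers; TopHat and Cufflinks 2.1.1 with build GRCm38.p4 are named per the submitters' processing notes. The deposited count columns are not whole numbers, so they were treated as a signal (scaled counts) and no count test was run; 97.7 to 97.9% of values were whole multiples of the smallest step, to within 0.1, which gave the fragment estimates. The annotation, the use of strand and the handling of multi-mapping fragments: not given in the sources used here. GENCODE M21 symbols matched 46483 of 47062 identifiers. limma 3.58.1 (R 4.3.3, variance trend) was fitted to log2(FPKM + 0.5) of the 16666 genes whose FPKM averaged 0.5 or more, over all 6 libraries, with two-sided p adjusted by Benjamini-Hochberg at 0.05; such fold changes understate those of low genes. The step was tested on simulated data. Single genes had exact permutation tests on FPKM. The members and lists were chosen with earlier results of these data known. Named genes are the members, Sp9, Gfra1, the 3 smallest p of each pathway list, the 2 closest profiles of Ntrk2 and Ntrk3, and markers that moved with a member; Pcsk2, Sort1, Sorcs2, Homer1, Gm9885 and the ratio to cholinergic markers were taken after their values were seen. Some genes of the pathway are not reported here.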

Additional observations from a re-analysis of the deposited data

How the results depend on the processing

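Ntrk2 stayed lower in mutants and outside the adjusted threshold under the 16 alternatives run (log2 fold change -0.24 to -0.16, limma adjusted p of 0.422 or more; 0.868 with the replicate block). The Ntrk3 log2 fold change turned positive on scaled counts (0.080) and without control replicate 3 (0.075), mutant replicate 2 (0.044) or control replicate 1 (0.015), and leaving out single libraries gave -0.15 to 0.075. For Ngfr it was 0.66 when scaled counts were used, and single libraries left out gave 0.12 to 0.45. The ratio of the Ngfr group means was 1.69 in FPKM and 1.70 on scaled counts, so the scales themselves hardly differed for Ngfr. The pseudocount of 0.5 FPKM is larger than the Ngfr mean of 0.369 FPKM and makes its log2 fold change in FPKM smaller. Quantile normalization, median-ratio scaling and the fits with the filter, block or robust option gave no value for Ngfr, and Bdnf and Ntf3, which lie at the floor, were fitted only without the filter (adjusted p = 0.900 and 0.908, limma), where a fold depends on the pseudocount and is not given. The genes past an adjusted p of 0.05 numbered 10 as reported, 23 on scaled counts, 5 with the replicate block and 12 to 21 with 1 library left out (18, 21, 16 and 20 without mutant replicate 2, mutant replicate 3, control replicate 1 and control replicate 3). Pathway genes at an unadjusted p under 0.05 numbered 10, and 5 to 9 with 1 library left out, where the share of all genes was not counted. Deviations from the group mean correlated weakly between same-numbered libraries (r of 0.00246 to 0.0433). Between libraries of other numbers across the groups, r was -0.0683 to 0.0328. Such values do not decide whether the replicate numbers pair the libraries. With the replicate block Mef2c had an unadjusted p = 0.000707 (adjusted p = 0.552, limma). The filter on scaled counts and the recount of the pathway lists and named genes under each setting were added after the data were seen.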
